A study of Mus musculus with 18 samples.

Results

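The unfolded protein response and the heat shock response were followed through 39 genes, which are listed by symbol and were chosen with earlier results of these data known. All 39 were found among the 24062 gene symbols of the count table, and all 39 passed the filter on low counts in each of the 8 comparisons. By role they are 3 stress sensors of the endoplasmic reticulum (ER), 5 transcription factors and feedback genes downstream of the sensors, 14 ER chaperones and folding enzymes, 4 genes of ER-associated degradation, 11 cytosolic heat shock genes and 2 mitochondrial chaperonins. The genes were measured by RNA sequencing of whole liver, kidney and lung from C57BL/6 mice. CCNE-TA mice carry a Tet-inducible Ccne1 (cyclin E1) transgene and the rtTA activator, and TA mice, the controls, carry rtTA alone. Both genotypes were given doxycycline, the drug that switches the transgene on, from 3 weeks of age and were killed at 4 months, so the drug and rtTA are common to all 6 groups of tissue and genotype. Each group had 3 libraries, and the promoter behind rtTA, the sex of the mice and whether a number marks the same mouse in each tissue are not given in the sources used here. The labels do not say that the libraries of a group came from separate mice, so p-values measure the spread between these libraries.

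Proteins that enter the ER are folded by chaperones such as the Hsp70 protein BiP (Hspa5), and unfolded clients that draw BiP away activate the sensors IRE1 (Ern1), ATF6 (Atf6) and PERK (Eif2ak3). IRE1 splices the Xbp1 transcript, ATF6 is cut to release a transcription factor, and PERK slows translation while favouring that of Atf4, so that chaperone, degradation and feedback genes are transcribed. The cytosolic heat shock response is a separate circuit in which HSF1 switches on cytosolic and mitochondrial chaperones. The hepatocyte secretes much of the plasma protein and relies heavily on this folding machinery.

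The depth of the libraries ran from 26214869 to 61954486 total counts in liver, from 20352770 to 43202066 in kidney and from 41597623 to 155323865 in lung. The lowest count of any of the 39 genes was 36 reads, for Hspa1a in liver TA 1. Ccne1 lay between 1.04 and 6.02 CPM (counts scaled to a common library depth) in the TA libraries of the 3 tissues and between 65.7 and 897 CPM in the CCNE-TA libraries. Summed over 5 markers, hepatocyte transcripts reached 87418 to 160141 CPM in liver, and 5 kidney tubule markers reached 18938 to 73404 CPM in kidney. In lung, 4 epithelial markers summed to 43032 to 121631 CPM. In bulk tissue, fewer cells of a type and less RNA per cell cannot be told apart. Xist was at 402 to 1244 CPM in 11 libraries and at 0.23 to 3.1 CPM in the other 7. Those 7 were number 3 of every group and, in liver alone, also TA 2. Genes of the Y chromosome (Ddx3y, Kdm5d, Uty and Eif2s3y) stood at 6.56 to 54.4 CPM in those 7 and at 0 to 0.48 CPM in the other 11. In liver they were thus found in TA 2, TA 3 and CCNE-TA 3. Read as labelled, TA 2 is therefore not the same mouse in liver as in kidney and lung.

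RefSeq promoters of the GRCm38.p6 build, from 250 bases before to 50 after the start of transcription, were found for 32 of the 39 genes. Of the others, Atf6, Hyou1, Manf, Hspa8, Hsp90aa1, Hsp90ab1 and Hsf1 had no entry. The ER stress element, the motif bound by NF-Y together with ATF6 or XBP1, was searched on both strands as CCAAT and CCACG with 9 bases between them. It was present in 0.119% of all 32851 promoters and in 8 of the 32 matched genes, namely Syvn1 and 7 of the 12 matched ER chaperones (Hspa5, Hsp90b1, Dnajc3, Pdia6, Calr, Canx and Creld2). The heat shock element was searched as GAA and TTC with 2 bases between them, which reads the same on both strands. It was present in 7.86% of all promoters, in 6 of the 7 matched cytosolic heat shock genes, in both mitochondrial chaperonins and in none of the other 23. A stricter form with 3 such units in a row was present in 0.603% of all promoters. Among the matched genes it was found in Hsph1, Hspd1 and Hspe1, and not in Hspb1. In both forms the matches of Hspd1 and Hspe1, neighbours on opposite strands, are the same bases read from either gene. Hspa1a and Hspa1b are near-identical copies, each with the shorter form at -104 to -97. The genes of these pairs are thus not separate finds. A match describes the letters of this window and is not evidence of binding. The promoters below are those of the 4 ER chaperones that hold the ER stress element and fell in CCNE-TA liver, and that of Hspb1, which holds 2 heat shock elements before the start and rose there. The heat shock element was also present in 3 called genes that fell, after the start in Hsph1 and Bag3 and before it in Hspd1, and in the uncalled Hspa1a, Hspa1b, Hspb8 and Hspe1. Each shows the 160 bases before the start, from 5′ to 3′ on the strand of the gene, with the motif in capitals (in Creld2 it lies on the opposite strand).
Hspa5 (chr2:34771930-34772089, plus strand): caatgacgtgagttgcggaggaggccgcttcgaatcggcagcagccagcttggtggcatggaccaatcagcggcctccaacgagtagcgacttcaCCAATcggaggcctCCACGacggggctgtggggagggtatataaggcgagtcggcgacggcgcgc
Dnajc3 (chr14:118937772-118937931, plus strand): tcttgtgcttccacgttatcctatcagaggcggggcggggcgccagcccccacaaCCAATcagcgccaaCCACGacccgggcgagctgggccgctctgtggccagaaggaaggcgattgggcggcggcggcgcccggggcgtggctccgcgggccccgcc
Canx (chr11:50325674-50325833, minus strand): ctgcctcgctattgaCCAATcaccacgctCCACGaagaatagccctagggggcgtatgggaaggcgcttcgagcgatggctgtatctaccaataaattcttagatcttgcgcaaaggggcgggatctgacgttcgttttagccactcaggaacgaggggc
Creld2 (chr15:88819486-88819645, plus strand): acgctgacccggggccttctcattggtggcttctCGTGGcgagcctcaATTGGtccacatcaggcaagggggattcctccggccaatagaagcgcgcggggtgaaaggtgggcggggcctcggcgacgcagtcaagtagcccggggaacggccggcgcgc
Hspb1 (chr5:135887759-135887918, plus strand): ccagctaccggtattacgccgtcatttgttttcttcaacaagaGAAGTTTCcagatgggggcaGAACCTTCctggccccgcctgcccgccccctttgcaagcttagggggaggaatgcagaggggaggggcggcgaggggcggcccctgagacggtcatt

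In CCNE-TA liver, 2 of the sensors, 7 ER chaperones, 2 degradation genes, 2 cytosolic heat shock genes and 1 chaperonin were lower than in TA liver, while Ddit3, Trib3, Ppp1r15a, Hspb1 and Hsf1 were higher. These 14 falls and 5 rises among the 39 genes passed an adjusted p of 0.05 in edgeR's quasi-likelihood test with Benjamini-Hochberg adjustment. Over all 13811 genes tested, 14.8% fell and 13.7% rose, 28.5% in all. The median log2 fold change, CCNE-TA over TA, was -0.73 for the 39 genes and 0.02 for all genes tested, and 33 of the 39 lay below 0. Every CCNE-TA library lay below every TA library for 23 of the 39 genes (24.7% of all genes) and above for 5 (23.2%). DESeq2 called 21 lower and 5 higher, against 16.3% and 16% of the genes it tested.

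**Figure D1:**
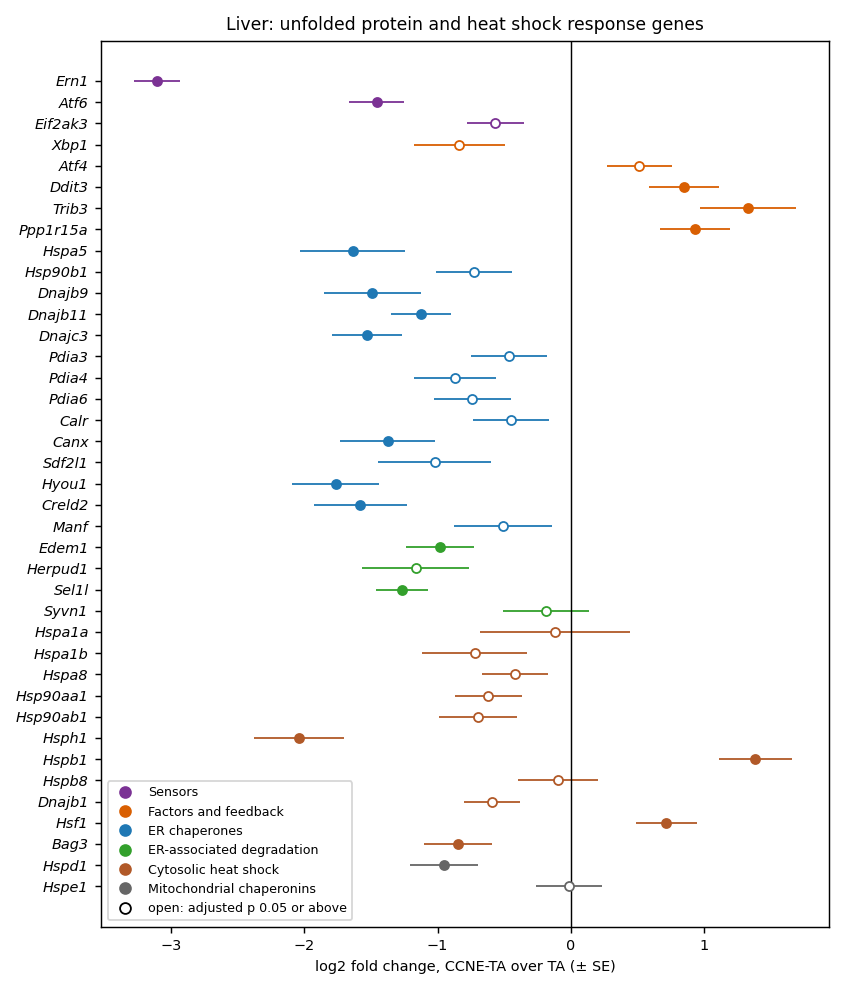
Log2 fold change of each gene in liver, CCNE-TA over TA (x axis), with genes in rows coloured by role. Bars are standard errors and filled points passed an adjusted p of 0.05. All 14 ER chaperones lie to the left of 0, from -1.77 to -0.45, and 4 of the 5 downstream factors and feedback genes lie to the right.

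Of the 3 sensors, 2 fell, with a median log2 fold change of -1.46. Ern1 (chr11:106394650-106487852, minus strand, GRCm38), whose protein splices Xbp1, stood at 50.8, 53.4 and 48.2 CPM in TA 1, 2 and 3 and 5.66, 6.61 and 5.49 CPM in CCNE-TA 1, 2 and 3. The TA libraries lay close together and none of the CCNE-TA libraries came near them. The log2 fold change was -3.10 (SE 0.17, n = 3 per group, edgeR adjusted p = 0.000154), which is 8.58-fold lower. Atf6 (chr1:170704674-170867771, minus strand), the sensor that is itself a transcription factor precursor, stood at 98.9, 123 and 117 CPM in TA 1, 2 and 3 and 36.2, 50.8 and 36.4 CPM in CCNE-TA 1, 2 and 3. The groups were again well separated (log2 fold change -1.46, SE 0.21, edgeR adjusted p = 0.00402). Eif2ak3, the kinase that slows translation, stood at 18.02, 18.3 and 26.8 CPM in TA 1, 2 and 3 and 16.1, 12.8 and 13.7 CPM in CCNE-TA 1, 2 and 3. Its groups did not overlap, but it did not pass the test (log2 fold change -0.57, SE 0.21, edgeR adjusted p = 0.0761).

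Of the 5 downstream factors and feedback genes, 3 rose and none fell, with a median of 0.85. Ddit3, which encodes the factor CHOP, stood at 5.17, 6.46 and 8.67 CPM in TA 1, 2 and 3 and 12.6, 9.66 and 14.3 CPM in CCNE-TA 1, 2 and 3, and rose by 0.85 on the log2 scale (SE 0.26, edgeR adjusted p = 0.0423). Of its exon bases, 10.9% overlap other genes such as Mars, and the kit does not mark strand. Trib3, a pseudokinase gene induced by ATF4 and CHOP, stood at 5.27, 14.5 and 6.795 CPM in TA 1, 2 and 3 and 25.3, 19.3 and 21.99 CPM in CCNE-TA 1, 2 and 3. TA 2 was the highest control, still below each CCNE-TA library, and the rise was 1.33 (SE 0.36, edgeR adjusted p = 0.0281). Ppp1r15a, whose product GADD34 reverses the translational block, stood at 11.5, 11.7 and 12.03 CPM in TA 1, 2 and 3 and 28.4, 13.9 and 24.7 CPM in CCNE-TA 1, 2 and 3. The controls were nearly equal while CCNE-TA 2 was only just above them, and the rise was 0.93 (SE 0.26, edgeR adjusted p = 0.032). Atf4 stood at 74.3, 68.4 and 104 CPM in TA 1, 2 and 3 and 132, 89.7 and 130.1 CPM in CCNE-TA 1, 2 and 3, with TA 3 above CCNE-TA 2 and no call (0.51, SE 0.24, edgeR adjusted p = 0.141). Xbp1, the substrate of IRE1, was the member of this role with a value below 0. It stood at 246, 330.3 and 556 CPM in TA 1, 2 and 3 and 246, 233 and 155 CPM in CCNE-TA 1, 2 and 3, with TA 1 and CCNE-TA 1 almost equal and no call (-0.84, SE 0.34, edgeR adjusted p = 0.094). The counts are per gene, so spliced and unspliced Xbp1 cannot be told apart.

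Of the 14 ER chaperones and folding enzymes, 7 fell and none rose, with a median of -1.07. Hspa5, whose product BiP holds the sensors inactive, stood at 663, 1057 and 1567 CPM in TA 1, 2 and 3 and 426, 414 and 216 CPM in CCNE-TA 1, 2 and 3. All CCNE-TA libraries were below all controls, but the controls themselves spanned a wide range, and the log2 fold change was -1.64 (SE 0.39, edgeR adjusted p = 0.019). The call was lost with Xist as a covariate (-1.46, edgeR adjusted p = 0.0949), without CCNE-TA 1 (-1.78, edgeR adjusted p = 0.0577), without TA 2 (-1.68, edgeR adjusted p = 0.0522) and without TA 3 (-1.30, edgeR adjusted p = 0.0694). It was also lost with a term for TA 2 and TA 3, which leaves TA 1 as the reference (-0.91, edgeR adjusted p = 0.269). Dnajb9 and Dnajc3 encode J-domain co-chaperones of BiP. Dnajb9 stood at 56, 49.01 and 86.9 CPM in TA 1, 2 and 3 and 30.3, 26.03 and 11.9 CPM in CCNE-TA 1, 2 and 3 (-1.49, SE 0.36, edgeR adjusted p = 0.02). Dnajc3 stood at 284, 262 and 319 CPM in TA 1, 2 and 3 and 109, 123 and 68.1 CPM in CCNE-TA 1, 2 and 3 (-1.53, SE 0.26, edgeR adjusted p = 0.00715). In Dnajc3 the controls were tight and CCNE-TA 3 was the lowest library, as it was in 12 of the 14 chaperones.

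Dnajb11, a further J-domain partner of BiP, stood at 81.1, 88.02 and 134 CPM in TA 1, 2 and 3 and 46.1, 49.3 and 43.3 CPM in CCNE-TA 1, 2 and 3 (-1.13, SE 0.23, edgeR adjusted p = 0.0111). Hyou1, a large Hsp70 relative that exchanges nucleotide on BiP, stood at 154, 228 and 364 CPM in TA 1, 2 and 3 and 84.2, 77.01 and 58.2 CPM in CCNE-TA 1, 2 and 3. It had the largest fall among the chaperones (-1.77, SE 0.33, edgeR adjusted p = 0.00897). Creld2, an ER-resident protein induced by ER stress, stood at 41.1, 47.6 and 102 CPM in TA 1, 2 and 3 and 25.7, 17.5 and 20.4 CPM in CCNE-TA 1, 2 and 3. TA 3 was far above the other controls, and the log2 fold change was -1.58 (SE 0.35, edgeR adjusted p = 0.0147). Canx encodes the lectin chaperone calnexin and stood at 287, 335 and 335 CPM in TA 1, 2 and 3 and 103, 194 and 71.4 CPM in CCNE-TA 1, 2 and 3. CCNE-TA 2 was the nearest to the controls and still below them (-1.38, SE 0.35, edgeR adjusted p = 0.0235). The other 7 did not pass the test, with values from -1.02 for Sdf2l1 to -0.45 for the calnexin relative Calr. Hsp90b1, the ER Hsp90 protein, had -0.73 and the protein disulfide isomerases Pdia3, Pdia4 and Pdia6 had -0.47, -0.87 and -0.74. Of the 7 chaperones with the ER stress element, Hspa5, Dnajc3, Canx and Creld2 fell and Hsp90b1, Pdia6 and Calr did not pass, whereas Dnajb9 and Dnajb11 fell without a match in the window.

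Of the 4 genes of ER-associated degradation, which returns misfolded proteins to the cytosol for the proteasome, 2 fell, with a median of -1.07. Sel1l, the adaptor of the ubiquitin ligase complex, stood at 144, 189 and 180.1 CPM in TA 1, 2 and 3 and 74.7, 65.9 and 72.7 CPM in CCNE-TA 1, 2 and 3. The groups were far apart and the CCNE-TA libraries tight (-1.27, SE 0.19, edgeR adjusted p = 0.00513). Edem1, which marks misfolded glycoproteins for removal, stood at 169, 192 and 254 CPM in TA 1, 2 and 3 and 118, 117 and 75.4 CPM in CCNE-TA 1, 2 and 3 (-0.98, SE 0.26, edgeR adjusted p = 0.0245). Herpud1 stood at 754, 552 and 441 CPM in TA 1, 2 and 3 and 256, 393 and 130.2 CPM in CCNE-TA 1, 2 and 3. It was highest in TA 1, where most of the chaperones had their lowest control value, and did not pass (-1.16, SE 0.40, edgeR adjusted p = 0.0595). Syvn1, the ligase that works with Sel1l, had -0.18 and overlapping groups.

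Of the 11 cytosolic heat shock genes, 2 rose and 2 fell, with a median of -0.59. Hsph1, an Hsp110 protein that exchanges nucleotide on Hsp70, stood at 67.2, 102 and 70.2 CPM in TA 1, 2 and 3 and 14.98, 29.9 and 13.3 CPM in CCNE-TA 1, 2 and 3. CCNE-TA 2 was the highest of its group and far below the controls (-2.04, SE 0.34, edgeR adjusted p = 0.00651). Bag3, a co-chaperone of Hsp70 in selective autophagy, stood at 36.8, 35.4 and 61.9 CPM in TA 1, 2 and 3 and 22.5, 29.8 and 22.3 CPM in CCNE-TA 1, 2 and 3. The gap between the groups was small (-0.85, SE 0.25, edgeR adjusted p = 0.0394). Hspb1, the small heat shock protein Hsp27, moved the other way. It stood at 13.2, 14.2 and 6.77 CPM in TA 1, 2 and 3 and 27.6, 29.9 and 31.5 CPM in CCNE-TA 1, 2 and 3, with each CCNE-TA library above the highest control (1.38, SE 0.27, edgeR adjusted p = 0.0107). Hsf1, the transcription factor of the heat shock response, stood at 15.96, 16.1 and 12.6 CPM in TA 1, 2 and 3 and 24.8, 17.9 and 30.6 CPM in CCNE-TA 1, 2 and 3. CCNE-TA 2 was close to the controls (0.71, SE 0.23, edgeR adjusted p = 0.0482).

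The inducible Hsp70 genes Hspa1a and Hspa1b did not pass in liver (-0.12 and -0.72). They are near-identical copies whose reads the counting may have split, and liver TA 2 was the highest library for both, at 2.67 and 24.3 CPM against 0.573 to 1.47 and 7.27 to 10.5 CPM in the other 5. The constitutive Hspa8 (-0.42), Hsp90aa1 (-0.62), Hsp90ab1 (-0.70), the co-chaperone Dnajb1 (-0.59) and the small heat shock gene Hspb8 (-0.10) did not pass either. Of the 2 mitochondrial chaperonins, Hspd1 (Hsp60) stood at 462, 512 and 555 CPM in TA 1, 2 and 3 and 237, 343 and 212 CPM in CCNE-TA 1, 2 and 3 and fell by 0.95 on the log2 scale (SE 0.25, edgeR adjusted p = 0.0267). Its partner Hspe1 (Hsp10), which shares exon sequence with Hspd1 in the annotation, had -0.02 with overlapping groups.

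The liver libraries varied within each genotype, and the controls most for the ER chaperones. TA 3 was the highest of the 6 libraries for all 14 chaperones and for 22 of the 39 genes. CCNE-TA 3 was the lowest for 12 chaperones and for 24 of the 39 genes. Over the chaperones, the median log2 level relative to the mean of the TA libraries was -0.41, -0.04 and 0.46 in TA 1, 2 and 3 and -0.76, -0.92 and -1.34 in CCNE-TA 1, 2 and 3. For the cytosolic heat shock genes, TA 2 was the highest control instead, with a median of 0.26 against -0.22 in TA 1 and -0.18 in TA 3.

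**Figure D2:**
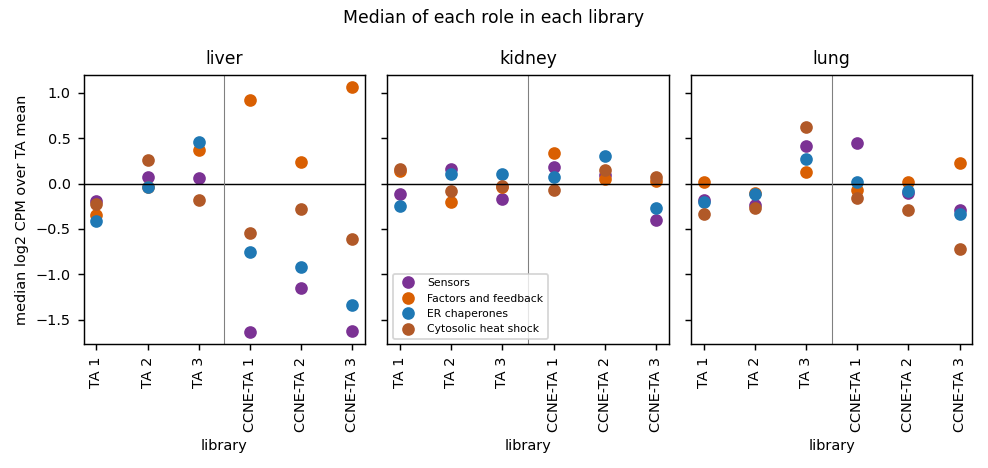
Median over the genes of 4 roles of log2(CPM + 0.1) in each library (x axis) minus the mean of the TA libraries of that tissue (y axis). In liver the points of the sensors and ER chaperones to the right of the grey line (CCNE-TA) all lie below those to its left (TA). In kidney the groups overlap, and in lung TA 3 is above the other controls for the 4 roles.

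Markers of other cell types moved in liver as well. All 3 endothelial markers fell, from a summed 63.2 to 81.0 CPM in TA to 23.6 to 26.4 CPM in CCNE-TA. Pancreatic acinar markers, of cells rich in ER, summed to 192, 78.9 and 22.7 CPM in TA 1, 2 and 3 and to 9.14 to 14.3 CPM in CCNE-TA, and 1 of the 3 tested fell. They were highest in the control with the lowest chaperone median. Kidney tubule markers summed to 17.2, 0.324 and 0.398 CPM in TA 1, 2 and 3 and to 16.3 to 34.3 CPM in CCNE-TA. By the kidney tubule markers TA 2 and TA 3 stood apart from TA 1 and from the CCNE-TA libraries. The acinar markers split otherwise, with TA 3 the control nearest to the CCNE-TA libraries. TA 2 and TA 3 were also the liver controls with Y chromosome transcripts. The split of TA 2 and TA 3 from the rest is partly shared with genotype, so split and genotype cannot be fully told apart. A term for TA 2 and TA 3 is among the alternatives below. Of 5 hepatocyte markers 1 fell, of 4 macrophage markers 1 fell, and of 4 plasma cell markers none changed. The part of these cells in the result was not tested.

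The liver calls differed in how far they held. Ern1 passed under all 16 alternatives, and Atf6, Dnajc3, Hsph1, Hyou1 and Sel1l lost their call only when a term for TA 2 and TA 3 left TA 1 as the reference. The calls of Dnajb9, Dnajb11 and Hspb1 held under 14, that of Creld2 under 13, of Canx under 12 and of Hspa5 under 11. Edem1, Hspd1 and Trib3 held under 10, Ddit3 under 9, Bag3 and Ppp1r15a under 8 and Hsf1 under 7. With that term 1 of the 39 genes fell and none rose, and the chaperone median was -0.58. With Xist as a covariate 10 fell and 3 rose, and Hspa5, Creld2, Edem1, Hspd1 and Bag3 were among the calls lost. Gene length moved with the liver result. The median log2 fold change was 0.52 for genes with under 2 kb of exon and -0.31 for genes with 8 kb or more. After a correction for length and GC content, 17 of the 39 genes fell and 1, Hsf1, rose, while Trib3 (0.78), Ppp1r15a (0.57), Ddit3 (0.59) and Hspb1 (0.51) no longer passed. The 5 higher and 14 lower calls became 1 and 8 without CCNE-TA 1 or without TA 3, 2 and 9 without TA 2, 1 and 12 without CCNE-TA 3, and 1 and 15 without TA 1. Under upper quartile scaling the median of all genes shifted to 0.21 and the calls over all genes went from 1897 higher and 2045 lower to 2610 and 1367, while 5 of the 39 rose and 13 fell. Each role's median kept its sign under all 16 alternatives. One of them, Hspa1a and Hspa1b summed, merges genes without a call and left 1897 higher and 2045 lower over all genes. It is thus hardly a test of the other calls.

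In kidney, where Ccne1 was highest, none of the 39 genes passed in either direction by edgeR or DESeq2, and none reached an unadjusted p under 0.05. Over all 15247 genes tested, 0.0131% passed by edgeR, and 1.44% were higher and 0.682% lower at the unadjusted threshold. DESeq2 called 0.115% higher and 0.0209% lower. The median of the 39 genes was -0.00, with values from -0.32 for Hspa1a to 0.56 for Trib3. The groups overlapped for every gene of the set, where 3.04% of all genes had each CCNE-TA library above each control and 2.68% below. Ern1 stood at 1.95, 2.602 and 1.88 CPM in TA 1, 2 and 3 and 2.56, 2.98 and 3.04 CPM in CCNE-TA 1, 2 and 3 (0.41, SE 0.33, edgeR adjusted p = 0.999). Hspa5 stood at 308, 369.9 and 355 CPM in TA 1, 2 and 3 and 305, 426 and 268 CPM in CCNE-TA 1, 2 and 3 (-0.05, SE 0.24, edgeR adjusted p = 0.999). The other sensors Atf6 and Eif2ak3 had -0.23 and -0.09.

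Among the smallest unadjusted p values in kidney were those of Ddit3 (0.148) and Trib3 (0.19), feedback genes that rose in liver. Ddit3 stood at 26.1, 20.4 and 24.97 CPM in TA 1, 2 and 3 and 29.9, 24.5 and 33.8 CPM in CCNE-TA 1, 2 and 3, and Trib3 at 3.597, 1.88 and 1.74 CPM in TA 1, 2 and 3 and 3.93, 2.63 and 4.03 CPM in CCNE-TA 1, 2 and 3. The groups overlapped in both, while CCNE-TA was above TA within each number (0.31, SE 0.19, and 0.56, SE 0.39; edgeR adjusted p = 0.999 for both). Hspa8 and Edem1 followed, with -0.31 and -0.27. In several ER genes the number 2 libraries of both genotypes were the highest. Herpud1 stood at 202, 455 and 247 CPM in TA 1, 2 and 3 and 173, 462 and 224 CPM in CCNE-TA 1, 2 and 3, and Canx at 158, 311 and 244 CPM in TA 1, 2 and 3 and 185, 426 and 278 CPM in CCNE-TA 1, 2 and 3. Kidney libraries of the same number deviated together across genes. Within each number CCNE-TA was above TA for 6 of the 39 genes (Ern1, Ddit3, Trib3, Ppp1r15a, Canx and Hspb8), where 13% of all genes were, and below it for 4 (Atf6, Hspa8, Hspd1 and Hspe1), where 13.9% were. With the replicate number as a block, none of the 39 genes passed either, with 0.30 for Ddit3 (edgeR adjusted p = 0.927), 0.60 for Trib3 and 0.42 for Ern1 (edgeR adjusted p = 0.945 for both).

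In lung none of the 39 genes passed by edgeR or DESeq2, against 0.00594% of all 16823 genes tested by edgeR and 0.1% higher and 0.941% lower by DESeq2. At an unadjusted p under 0.05, 3 were lower (2.58% of all genes) and none was higher (1.07%). These were Hsp90aa1, Hsph1 and Hspe1. Hsp90aa1, an inducible cytosolic Hsp90 gene, stood at 779, 905 and 1181 CPM in TA 1, 2 and 3 and 479, 686 and 534 CPM in CCNE-TA 1, 2 and 3, with the groups apart (-0.75, SE 0.22, unadjusted p = 0.0131, edgeR adjusted p = 1). Hsph1 stood at 104, 124 and 294 CPM in TA 1, 2 and 3 and 92.6, 93.6 and 63.8 CPM in CCNE-TA 1, 2 and 3 (-1.06, SE 0.42, edgeR adjusted p = 1). The groups did not overlap, and TA 3 was far above the other libraries. Hspe1 stood at 67.98, 72.6 and 89.4 CPM in TA 1, 2 and 3 and 43.4, 63.96 and 58.2 CPM in CCNE-TA 1, 2 and 3 (-0.47, SE 0.19, edgeR adjusted p = 1). Hspb1, which rose in liver, stood at 169, 180.0 and 334 CPM in TA 1, 2 and 3 and 109, 177 and 125 CPM in CCNE-TA 1, 2 and 3 (-0.73, SE 0.32, edgeR adjusted p = 1). Its groups overlapped, and TA 3 was again the highest. In 4 of the 39 genes each CCNE-TA library lay below each control, against 4.59% of all genes, and in none did each lie above (3.3%).

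Lung TA 3 stood apart. It was the highest of the 6 lung libraries for 30 of the 39 genes, including 10 of 11 cytosolic heat shock genes, 13 of 14 ER chaperones and both chaperonins. Hspa1b stood at 16.5, 17.5 and 81.6 CPM in TA 1, 2 and 3 and 27.4, 13.4 and 12.1 CPM in CCNE-TA 1, 2 and 3, and Hspa8 at 1491, 1548 and 3173 CPM in TA 1, 2 and 3 and 1782, 1646 and 1116 CPM in CCNE-TA 1, 2 and 3. For both, TA 3 was far above the other 5. The median over the cytosolic heat shock genes was -0.54, and it was -0.06 without TA 3. The same library had a hepatocyte marker sum of 2123 CPM, against 54.5 to 616 CPM in the other lung libraries. It was also the highest for muscle markers (1300.1 against 152 to 609 CPM), fat markers (81.9 against 23.5 to 58.1 CPM) and endothelial markers (2371 against 1470 to 2062 CPM). Kidney tubule markers summed to 68.8 CPM in TA 3 against 44.6 to 67.0 CPM. Nearly all of that came from Lrp2 (68.7 CPM), while Kap and Slc34a1 were at 0. T and B cell markers were lowest in TA 3 (25.3 against 27.9 to 78.1 CPM). The lung epithelial sum of TA 3 was the lowest of the controls (72921 against 110245 and 121631 CPM), and its depth was the lowest in lung. The part of these markers in the result was not tested.

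The sensors in lung were high in 2 libraries of opposite genotype. Ern1 stood at 15.7, 9.73 and 40.3 CPM in TA 1, 2 and 3 and 46.6, 15.2 and 9.49 CPM in CCNE-TA 1, 2 and 3. CCNE-TA 1 and TA 3 were well above the others and the groups overlapped (0.12, SE 0.74, edgeR adjusted p = 1). Hspa5 stood at 426, 450.2 and 1047 CPM in TA 1, 2 and 3 and 760.1, 516 and 364 CPM in CCNE-TA 1, 2 and 3, with the same libraries on top (-0.23, SE 0.43, edgeR adjusted p = 1). Atf6 and Eif2ak3 had 0.07 and 0.02, and CCNE-TA 1 was the highest library for all 3 sensors. Macrophage markers summed to 358 CPM in CCNE-TA 1 and to 115 to 144 CPM in the other lung libraries, and their part was not tested.

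**Figure D3:**
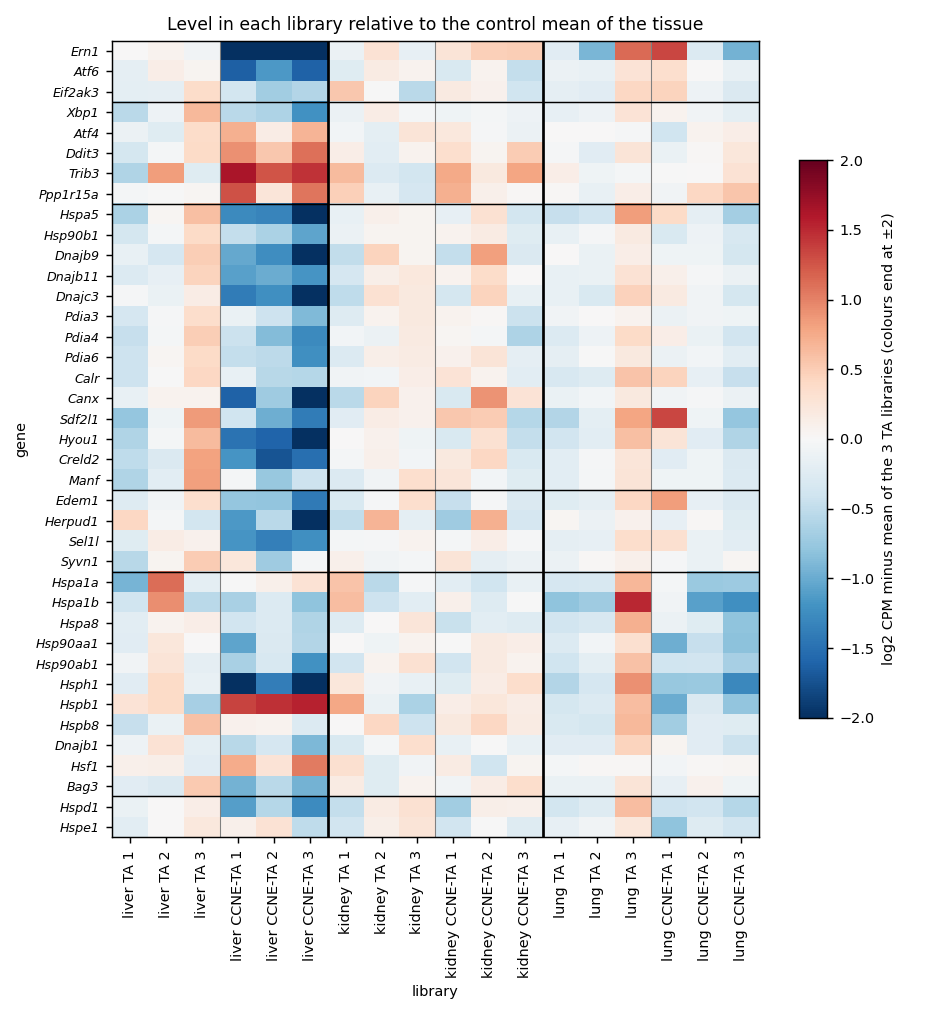
Log2(CPM + 0.1) of the 39 genes (rows, grouped by role) in the 18 libraries (columns), relative to the mean of the TA libraries of each tissue. Blue is lower and red higher, with colours ending at a difference of 2. The CCNE-TA livers are blue for sensors, chaperones and degradation genes, except Syvn1 in CCNE-TA 1, and red for Ddit3, Trib3, Ppp1r15a, Hspb1 and Hsf1, and lung TA 3 is red for nearly all genes.

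Whether the genotype effect differed between tissues was tested as an interaction in 1 edgeR fit of all 18 libraries. Against kidney, 10 of the 39 genes had a lower effect in liver and none a higher one, where 4.74% and 4.78% of 17155 genes passed in each direction. The sensors Ern1 (difference of log2 fold changes -3.51, SE 0.73, edgeR adjusted p = 0.0136) and Atf6 (-1.24, SE 0.28, edgeR adjusted p = 0.0182) were among them. So were Sel1l (-1.30, SE 0.25, edgeR adjusted p = 0.0102), the chaperones Dnajb11 (-1.26, SE 0.28, edgeR adjusted p = 0.0171) and Creld2 (-1.71, SE 0.39, edgeR adjusted p = 0.0176), and Hsph1 (-2.13, SE 0.52, edgeR adjusted p = 0.0225). Ddit3 (0.54, SE 0.30), Trib3 (0.76, SE 0.48) and Ppp1r15a (0.65, SE 0.37) did not pass, with edgeR adjusted p from 0.25 to 0.307, which does not show that their effects were equal. By role, 2 of 3 sensors, 5 of 14 chaperones, 1 of 4 degradation genes and 2 of 11 cytosolic heat shock genes passed.

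Against lung, 7 of the 39 genes had a lower and 1 a higher effect in liver, where 6.51% and 6.23% of genes passed. The gene with the higher effect was Hspb1 (2.08, SE 0.49, edgeR adjusted p = 0.0169). Atf6 (-1.55, SE 0.28, edgeR adjusted p = 0.00708), Sel1l (-1.28, SE 0.25, edgeR adjusted p = 0.00839) and Ern1 (-3.25, SE 0.70, edgeR adjusted p = 0.0127) had the smallest p values among the lower ones. Dnajb11 (-1.12, SE 0.28, edgeR adjusted p = 0.0221) and Creld2 (-1.39, SE 0.39, edgeR adjusted p = 0.0306) followed. Both comparisons use the same liver libraries. Under upper quartile scaling the calls over all genes were 1202 higher and 602 lower against kidney and 1636 and 662 against lung, in place of 820 and 814 and of 1068 and 1116, with 0 and 9 and 2 and 5 of the 39 genes. Ern1 and Sel1l against kidney, and Ern1, Sel1l, Atf6 and Hspb1 against lung, passed under all 16 alternatives. Against lung, Hyou1 held its call under 6 of the 16, Creld2 and Dnajc3 under 8 and Dnajb11 under 12. The count of genes with a lower effect against kidney was 2 without kidney CCNE-TA 2, 5 without kidney TA 3, liver CCNE-TA 1 or liver CCNE-TA 3, and 6 without kidney TA 1, liver TA 2 or liver TA 3. Against lung it was 3 without liver TA 3, lung TA 1 or lung TA 2, 4 without liver CCNE-TA 3, lung CCNE-TA 1 or lung CCNE-TA 2, and 10 without lung TA 3 or liver CCNE-TA 2, while 3 genes then had a higher effect without liver CCNE-TA 2 and 2 without liver TA 2.

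**Figure D4:**
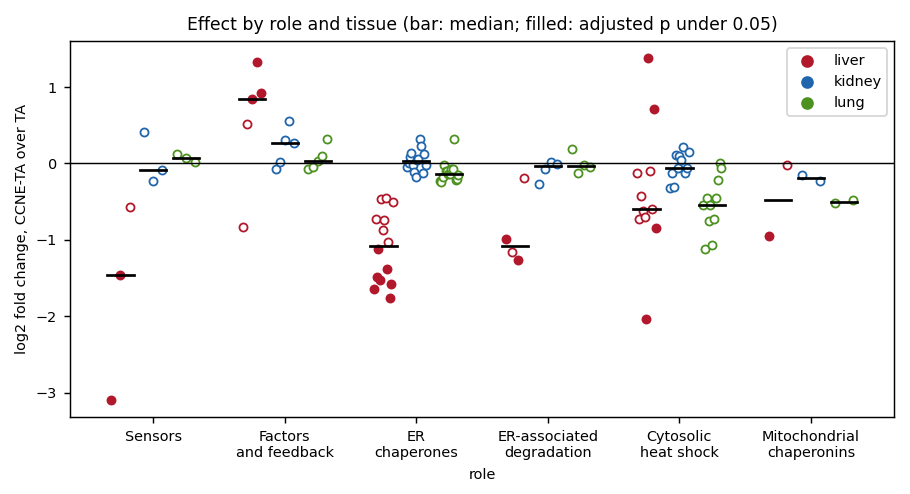
Log2 fold change, CCNE-TA over TA (y axis), of each gene by role (x axis) in liver, kidney and lung. Black bars are medians over the genes of a role and filled points passed an adjusted p of 0.05. The role medians in liver run from -1.46 for sensors to 0.85 for downstream factors, and no point is filled in kidney or lung.

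Control mice were used to set the 39 genes against each other and across tissues. Levels per length are CPM scaled over all 18 libraries and divided by kilobases of merged exon (RPKM). Of the 39 genes, 32 had their highest mean level per length in liver, 4 in kidney and 3 in lung. The median over the genes was 56.8 RPKM in liver, 19.03 in kidney and 21.0 in lung. As TPM, a measure per length that gives each library the same sum over genes, 21 were highest in liver, 6 in kidney and 12 in lung. The medians were then 81.5, 55.7 and 69.2 TPM. On that scale 11 of the 14 chaperones and all 4 degradation genes were still highest in liver, whereas Pdia3, Pdia6 and Creld2 were highest in lung, and of the 11 cytosolic heat shock genes the number highest in liver went from 6 to 1 (Hspb8). Between control liver and kidney, 27 genes were higher and 5 lower in liver (30.5% and 34.5% of 16578 genes, 64.9% in all). Between control liver and lung the counts were 27 and 4 (34.7% and 36.9%, 71.5% in all). All 14 ER chaperones and all 4 degradation genes were higher in liver in both comparisons. Between lung and kidney, 13 were higher and 7 lower in lung (31.3% and 29.3%, 60.6% in all), among them 3 and 1 of the chaperones. Without lung TA 3 those counts were 8 and 8, without lung TA 1 or 2 they were 12 and 3, and without kidney TA 1 or TA 3 the lower count was 4. For liver over kidney, 3 genes were lower without kidney TA 1 or liver TA 3. Upper quartile scaling moved the median of all genes to -0.43 for liver over kidney and to -0.54 for liver over lung, from -0.13 and -0.09. The calls over all genes then went from 5050 higher and 5713 lower to 3947 and 6942, and from 5747 and 6112 to 4079 and 7648, with 26 and 6 and 24 and 6 of the 39 genes. All 14 chaperones and all 4 degradation genes were called higher in liver under each of the 10 alternatives of these comparisons, except for 13 of the chaperones against lung with upper quartile scaling.

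**Figure D5:**
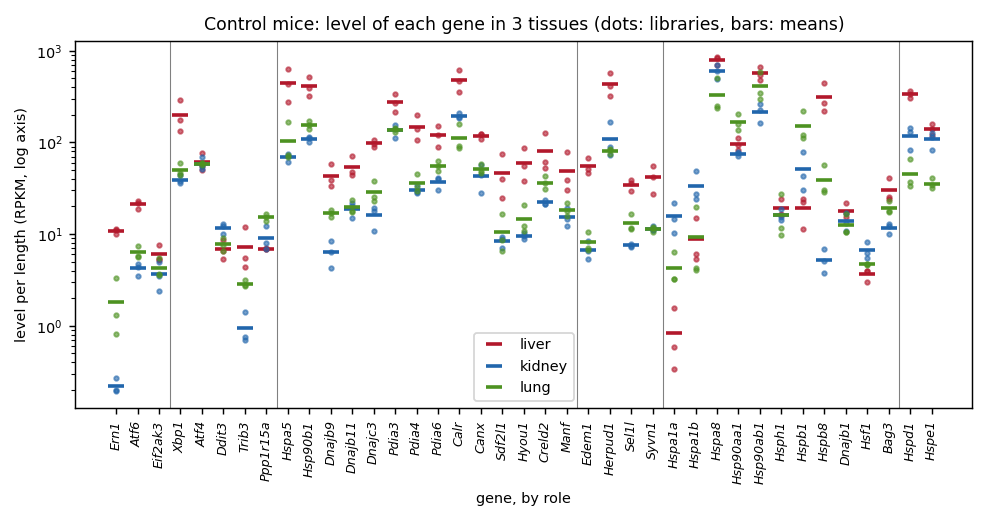
Level per length in control mice (y axis, RPKM, log scale) for each gene (x axis, by role) in liver, kidney and lung. Dots are libraries and bars are means of 3. Liver bars are the highest for all 14 ER chaperones (11 as TPM), and Hspa1a and Hspb1 are lower in liver than in either other tissue.

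Ern1 had the steepest tissue order of the sensors. Its level per length was 10.95, 11.4 and 10.1 RPKM in liver TA 1, 2 and 3, 0.201, 0.270 and 0.194 RPKM in kidney and 1.32, 0.820 and 3.34 RPKM in lung. Liver, lung and kidney did not overlap, and each pair differed. The log2 difference was 5.59 for liver over kidney (SE 0.52, edgeR adjusted p = 1.16e-05), 3.01 for lung over kidney (SE 0.47, edgeR adjusted p = 0.00042) and 2.58 for liver over lung (SE 0.44, edgeR adjusted p = 0.000505). The mean in CCNE-TA liver was 1.25 ± 0.15 RPKM (SD, n = 3), between those of control kidney and lung. Atf6 had the highest mean of the sensors in every tissue, at 21.3 ± 2.2 RPKM in liver, 4.22 ± 0.62 in kidney and 6.30 ± 0.99 in lung. In kidney TA 1, however, Eif2ak3 was above it (5.02 against 3.53 RPKM). Each pair of tissues differed for Atf6. Eif2ak3 was the most even, at 6.06 ± 1.3, 3.63 ± 1.3 and 4.27 ± 1.1 RPKM. As TPM it was lowest in liver (8.73) and highest in lung (14.1). By edgeR Eif2ak3 was higher in liver than in kidney (0.74), the reverse of their order as TPM. In that comparison all 3 sensors were called higher by the main fit. Only 2 were under some alternatives, among them DESeq2, a replicate block and upper quartile scaling. Between lung and either other tissue, Eif2ak3 did not differ beyond the spread (0.51, liver over lung, and 0.23, lung over kidney).

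Among the downstream genes, Xbp1 was highest in liver (201 ± 82 RPKM), and Atf4 was highest in kidney (58.5 ± 9.5) and lung (58.2 ± 1.5). The lowest were Ddit3 in liver (6.85 ± 1.7 RPKM) and Trib3 in kidney (0.954 ± 0.41) and lung (2.86 ± 0.25). Among the ER chaperones, calreticulin (Calr) led in liver (480.5 ± 131 RPKM) and kidney (194 ± 15), and Hsp90b1 led in lung (155 ± 16). The least abundant was Dnajb9 in liver (43.5 ± 13) and kidney (6.32 ± 2.0) and Sdf2l1 in lung (10.6 ± 5.4). Hspa5 stood at 448 ± 180 RPKM in liver, 68.7 ± 6.7 in kidney and 103 ± 56 in lung, higher in liver than in both, with no call between lung and kidney (0.58). Herpud1 was the highest degradation gene in each tissue, at 435 ± 125 RPKM in liver, 109 ± 50 in kidney and 81.0 ± 5.4 in lung. The lowest were Sel1l in liver (34.7 ± 4.6) and Edem1 in kidney (6.75 ± 1.5) and lung (8.16 ± 2.1).

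The cytosolic heat shock genes had no common tissue order. Hspa8 was highest in liver (788 ± 85 RPKM) and kidney (595 ± 103), and Hsp90ab1 in lung (410.5 ± 153). Hspb8, which works with Bag3, stood at 219, 272 and 441 RPKM in liver, 5.09, 6.81 and 3.79 in kidney and 29.9, 29.1 and 56.7 in lung. The tissues did not overlap, and the log2 difference was 5.89 (SE 0.43) for liver over kidney, 2.87 (SE 0.38) for lung over kidney and 3.02 (SE 0.38) for liver over lung. Hspa1a ran the other way, at 0.340, 1.57 and 0.590 RPKM in liver, 22.0, 10.3 and 14.7 in kidney and 3.25, 3.27 and 6.40 in lung, with -4.26 (SE 0.59) for liver over kidney and -1.87 (SE 0.52) for lung over kidney. Its near-identical copy Hspa1b stood at 8.84 ± 5.4 RPKM in liver, 33.3 ± 13 in kidney and 9.34 ± 9.0 in lung. Reads may have been split between the copies, so the size of the Hspa1a difference is uncertain. Hspb1 was higher in lung (113, 120 and 219 RPKM) than in liver (22.5, 24.0 and 11.2 RPKM), with -2.96 (SE 0.45) for liver over lung. Hspd1 was higher in liver (308, 337 and 359 RPKM) than in lung (33.8, 36.9 and 66.4 RPKM), with 2.88 (SE 0.32). Hspe1 was the lower of the chaperonins in all 3 tissues, at 139 ± 18 RPKM in liver, 108 ± 24 in kidney and 35.5 ± 4.9 in lung.

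Other genes of the same pathways were counted from 4 lists. In liver, of 40 tested further genes of the unfolded protein response and ER folding, 10 fell and 1 rose, with a median of -0.34. For each of the 4 lists, 14.8% lower and 13.7% higher over all genes are the shares to set beside the counts. The gene that rose was Creb3l1, an ER-membrane transcription factor, from 1.09 ± 0.034 to 3.82 ± 1.3 CPM (1.80, SE 0.36, edgeR adjusted p = 0.0106). The ER oxidase Ero1lb fell from 67.7 ± 16 to 28.2 ± 1.8 CPM (-1.26, SE 0.21, edgeR adjusted p = 0.00682), Hspa13 fell by 1.71 and the ER membrane gene Wfs1 fell by 1.23 on the log2 scale. Of 19 further degradation genes, 8 fell and 1 rose (median -0.56). Nploc4, a cofactor of the p97 segregase, fell from 112 ± 4.1 to 40.7 ± 5.9 CPM (-1.46, SE 0.18, edgeR adjusted p = 0.00285). Edem3, a relative of Edem1, fell by 0.92, whereas Selk rose by 1.23.

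Of 47 further cytosolic chaperones and co-chaperones, 11 fell and 3 rose (median -0.34). The Hsp70-interacting protein gene St13 fell by 1.17, Ahsa2 by 1.13 and Bag4 by 1.01. Among the genes that rose were Hspa1l (1.88) and the collagen chaperone Serpinh1 (0.92). Of 12 further mitochondrial folding and protease genes, 6 fell and 1 rose (median -0.59). Hspa9, the mitochondrial Hsp70, fell from 583 ± 51 to 197 ± 82 CPM (-1.57, SE 0.32, edgeR adjusted p = 0.0116), Dnaja3, its co-chaperone, fell by 0.70, Spg7 fell by 0.67 and the protease gene Clpp rose by 0.66. In kidney and lung none of the genes of these lists passed by edgeR or DESeq2. At an unadjusted p under 0.05, 1 gene was higher in kidney (1.44% of all genes), and in lung 1 of 41 genes of ER folding and 3 of 47 cytosolic chaperones were lower (2.58%). Among the latter were Hspa4l (-0.72, SE 0.25) and Stip1 (-0.59, SE 0.23).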

How the data were processed

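Whole liver, kidney and lung were sequenced in 18 libraries (6 groups of 3) made from column-extracted RNA (100 to 200 ng) with version 2 of the TruSeq RNA kit. The authors deposited raw read counts, 1 row for each gene symbol and 1 column for each library. Per the submitters' processing notes, reads were handled with TopHat2 2.0.14, Bowtie2 2.2.6 and featureCounts 1.4.6 on the mm10 build. The strand setting and the treatment of reads with several alignments are not given in the sources used here.

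Each tissue was fitted with edgeR 4.0.16 in R 4.3.3 (filterByExpr filter, TMM scaling, robust quasi-likelihood F test, Benjamini-Hochberg adjustment over all tested genes, threshold 0.05). The differences between tissues were interactions in 1 fit of all libraries, and control tissues were compared in a fit of the TA libraries. The SE is the size of the log2 fold change divided by √F. CPM are scaled by TMM within a tissue, with 0.1 CPM added before logs for the library medians and plots. Exon lengths are from GENCODE M21, matched for 98.4% of symbols.

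The members and lists were chosen with earlier results of these data known. Every gene past the threshold in a genotype comparison was named with its libraries (otherwise up to 4 by p), the sensors and Hspa5 in each tissue, up to 6 genes by p per difference between tissues, and for levels the highest and lowest gene of each role and the 3 largest folds. Of the other lists, up to 3 genes per direction by p were named in liver and up to 2 elsewhere, and some genes of these lists are not reported here. Promoters are shown for called liver genes with a motif before the start, except Hspd1.

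The alternatives were DESeq2 1.42.0, RLE and upper quartile scaling, no filter, a replicate block, 1 fit of all 18 libraries, an Xist covariate, a length and GC correction (splines with 4 degrees of freedom), Hspa1a and Hspa1b summed, a term for liver TA 2 and TA 3, levels as TPM, and leaving out each library. In kidney, libraries of the same number deviated together (correlations across genes of 0.31, 0.49 and 0.34), so there a fit with the number as a block is given beside the unpaired main fit. Xist and the Y chromosome genes also followed the number in both kidney genotypes. The correlations therefore do not show that the numbers pair the samples, and no label states it.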

Additional observations from a re-analysis of the deposited data

Results flagged for a closer look

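The genotype effect of 11 of the 39 genes differed between tissues in the interaction test of edgeR (adjusted p under 0.05, n = 3 libraries per group). The values are differences of log2 fold changes, liver minus the other tissue.

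Against kidney, the effect in liver was lower for Ern1 (-3.51), Hsph1 (-2.13), Creld2 (-1.71), Canx (-1.69), Hyou1 (-1.64), Dnajc3 (-1.51), Sel1l (-1.30), Dnajb11 (-1.26), Atf6 (-1.24) and Bag3 (-0.99). Against lung, it was lower for Ern1 (-3.25), Hyou1 (-1.57), Atf6 (-1.55), Dnajc3 (-1.45), Creld2 (-1.39), Sel1l (-1.28) and Dnajb11 (-1.12) and higher for Hspb1 (2.08). The comparisons share the liver libraries. Bag3 held its call against kidney under 5 of 16 alternatives, and Hyou1, Dnajc3 and Canx held theirs under 7. Against lung, Hyou1 held its call under 6, and Creld2 and Dnajc3 held theirs under 8.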

How the results depend on the processing

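In liver, 2548 genes passed with Xist as a covariate and 259 with the term for TA 2 and TA 3, in place of 3942. Of the 39 genes, 3, 1 and 0 rose with the Xist covariate, the length and GC correction and that term, and 10, 17 and 1 fell. No call among the 39 genes changed direction under any alternative in the comparisons of genotype or of its difference between tissues. DESeq2 called 26 genes in kidney (2 by edgeR) and 187 in lung (1 by edgeR), and 3060 and 3497 for the liver effect against kidney and lung (1634 and 2184 by edgeR), with 2 of the 39 genes higher in each. The fit of all 18 libraries called 94 genes in lung. Upper quartile scaling gave 2 genes with a higher effect in liver than in lung and 3 lower in lung than in kidney. Lung Eif2ak3, not called, went from 0.02 to -0.0048 with that scaling and to -0.0046 with the length and GC correction. As TPM, the median level of the 39 genes was 81.5 in liver, 55.7 in kidney and 69.2 in lung. The cause of these changes was not tested.

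With the replicate number as a block (a paired fit), 4 of the 39 genes rose and 14 fell in liver and none passed in kidney or lung. No gene at all passed in lung, and 818 and 1135 genes passed for the liver effect against kidney and lung, with 7 and 5 of the 39 lower. Correlations of same-numbered libraries were 0.20, -0.00 and 0.08 in liver and -0.48, -0.10 and -0.59 in lung, so the numbers were not taken as pairs there.

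Without each library in turn, 1521 to 4582 genes passed in liver, with 1 to 5 of the 39 higher and 8 to 17 lower. Kidney gave 1 to 2 genes and lung 0 to 1. The effect against kidney gave 396 to 2717 genes, with 0 to 1 of the 39 higher and 2 to 11 lower, and that against lung 693 to 3084, with 1 to 3 and 3 to 10. In control mice, 3 to 5 of the 39 were lower in liver than in kidney, and 8 to 12 higher and 3 to 8 lower in lung than in kidney. Uncalled values changed sign for Eif2ak3 (-0.31 to 0.22) and Hspa5 (-0.27 to 0.086) in kidney and for Atf6 (-0.075 to 0.20), Eif2ak3 (-0.23 to 0.25), Ern1 (-0.83 to 0.88) and Hspa5 (-0.54 to 0.30) in lung.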

Other observations

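In kidney, the number 2 library was the highest of its genotype for Herpud1, Canx, Dnajb9 and Dnajc3 in both genotypes. Dnajb9 reached 25.1 CPM in TA 2 and 32.7 CPM in CCNE-TA 2, against 13.1 to 19.1 CPM in the remaining 4 libraries. Dnajc3 reached 117 and 129 CPM there, against 66.4 to 108 CPM. In liver, CCNE-TA 2 was the highest of its genotype for Herpud1 (393 CPM against 256 and 130.2 CPM) and Canx (194 CPM against 103 and 71.4 CPM), while TA 2 was not. These 4 genes were picked with their values in view.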
